A study of Mus musculus with 12 samples.

Results

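The 7 β-1,4-galactosyltransferase genes B4galt1 to B4galt7 were examined together with Ugcg and St3gal5 in blood progenitors of mice carrying the PU.1 Q202L knock-in (KI) and of wild-type littermates (WT). These 9 genes of 18193 measured genes were represented by 20 of 45037 probe sets, namely every probe set that the platform annotation gives to 1 of these symbols and to no other. The set was chosen by measured values: B4galt6 was picked for its fall in KI GMP-like cells, and its family and both enzymes that act beside it were added by function. The B4galt6 values in GMP are therefore descriptions and carry no test. The other members and the gene lists used below were chosen with earlier results of these data known. For each gene the leading probe set is the brightest by its mean of the 12 arrays, and its other probe sets serve as checks.

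Sugar chains on membrane lipids are built stepwise from ceramide. Ugcg, the glucosylceramide synthase, adds the first glucose, B4galt5 and B4galt6 add a galactose to make lactosylceramide, and St3gal5 adds a sialic acid to make GM3, from which most gangliosides are built. B4galt1 to B4galt4 place galactose mainly on glycoproteins, whereas B4galt7 makes part of the linker that joins proteoglycan chains to their core protein. PU.1, encoded by Spi1, is a transcription factor of myeloid and lymphoid progenitors, and the Q202L exchange was made to test its interaction with c-Jun.

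RNA came from cells sorted from newborn liver by the labels, which give the strain as C57Bl/6; the paper describes fetal liver, and its reporting form a mixed background. Both short-term hematopoietic stem cells (ST-HSC; lineage-negative, Sca-1+, c-kit+, CD150-) and granulocyte-monocyte progenitors (GMP; lineage-negative, Sca-1-, c-kit+, Fcγ receptor-high, CD34+) were taken from homozygous KI and WT mice, with 3 arrays per group and 12 in all. For ST-HSC the labels give CD48+ and the paper CD48-, and the KI cells of the GMP gate, called GMP-like, are described there as CD34-intermediate. The labels do not say that the arrays of a group came from separate animals, so the p-values rest on variation among the arrays at hand, part or all of which may be technical.

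Of 8 measured stem and progenitor gate genes, 2 were called higher in KI ST-HSC (Slamf1, 1.92, and Fcgr3, 1.68) and 2 lower (Flt3, -2.69, and Cd34, -1.41) on the log2 scale. A call is a limma adjusted p under 0.05. Such calls covered 1.33% of all genes as higher and 1.68% as lower in ST-HSC, and 1.19% and 1.40% in GMP. Slamf1, which encodes CD150, was at 6.53 there and at 4.61 in WT ST-HSC although the gate takes CD150-negative cells. In GMP 1 of the 8 was called, Cd34, at 6.79 in KI and 9.66 in WT (log2 means, n = 3). Of 6 GMP genes, Cebpa was called higher and Csf1r lower in KI ST-HSC, and Csf1r lower in KI GMP-like cells. The granule genes Elane and Prtn3 read below WT GMP on all KI GMP-like arrays, by -1.61 and -1.10 without passing (limma adjusted p = 0.0865 and 0.112), while Mpo and Ctsg, both among the brightest probe sets, differed by -0.07 and 0.02. Spi1 itself differed by 0.17 in ST-HSC and 0.39 in GMP (limma adjusted p = 0.798 and 0.384), but the knock-in changes 1 amino acid, so its level does not check the genotype. Xist, an RNA of female cells, was high (10.67 to 11.74) on WT replicates 1 and 3 of both populations and low (2.98 to 3.78) on the other 8 arrays, all KI arrays included. Sex thus moved partly with genotype, and values without the high-Xist arrays are given where they change a result. In bulk samples, fewer cells of a type and less RNA per cell cannot be told apart.

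Promoters of the called members other than B4galt6 are shown, so that genes called higher and genes called lower can be set side by side. RefSeq (GRCm38.p6) gave a promoter for 8 of the 9 members, all but B4galt6. The 250 bases before each start were searched on both strands for GAGGAA (the core of a PU.1-type site), GGGCGG (a GC box) and TGANTCA (an AP-1 site), with overlapping matches counted separately. Printed below are the parts outside the gene bounds, 5′ to 3′ on the gene's strand, for Ugcg (chr4:59189300-59189506, plus strand), B4galt5 (chr2:167349179-167349428, minus strand), St3gal5 (chr6:72097358-72097551, plus strand) and B4galt4 (chr16:38742009-38742219, plus strand). Capitals mark matches to a searched motif.
Ugcg: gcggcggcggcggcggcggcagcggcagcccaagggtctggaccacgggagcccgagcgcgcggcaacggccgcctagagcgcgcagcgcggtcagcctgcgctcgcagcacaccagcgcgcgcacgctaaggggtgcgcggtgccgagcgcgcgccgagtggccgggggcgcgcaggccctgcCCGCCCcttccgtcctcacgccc
B4galt5: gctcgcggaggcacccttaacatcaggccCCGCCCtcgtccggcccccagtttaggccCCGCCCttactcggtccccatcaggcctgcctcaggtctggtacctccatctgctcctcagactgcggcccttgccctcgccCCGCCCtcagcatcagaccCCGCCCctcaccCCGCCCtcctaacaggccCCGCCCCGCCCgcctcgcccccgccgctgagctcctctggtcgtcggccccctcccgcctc
St3gal5: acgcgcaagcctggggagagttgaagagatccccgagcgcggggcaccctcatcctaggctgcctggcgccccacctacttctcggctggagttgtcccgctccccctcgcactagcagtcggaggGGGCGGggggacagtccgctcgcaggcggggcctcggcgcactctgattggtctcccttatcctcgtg
B4galt4: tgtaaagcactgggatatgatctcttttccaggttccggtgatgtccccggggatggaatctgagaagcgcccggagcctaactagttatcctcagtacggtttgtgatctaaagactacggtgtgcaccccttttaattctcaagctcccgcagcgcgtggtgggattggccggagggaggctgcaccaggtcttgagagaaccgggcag
All 7 matches in B4galt5 were GC boxes, and so was the 1 match in the stretch of Ugcg and in that of St3gal5, whereas the B4galt4 stretch held none. Over the full 250 bases, GAGGAA was found in 4 of 8 members (Ugcg, B4galt2, B4galt3 and B4galt7) and in 23.3% of 32851 promoters. In Ugcg its first base lay at -27, in the part not printed, which other transcripts of the gene cover. GC boxes were found in 7 of 8 members against 32.7% of all promoters. TGANTCA was found in 0 of 8, against 6.75%. A match of letters is a description and does not show binding.

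In ST-HSC, 1 of the 9 members was higher in KI (Ugcg) and 2 were lower (B4galt6 and St3gal5) at a Benjamini-Hochberg adjusted p under 0.05 from limma fitted over all probe sets. Of all genes, 1.33% were called higher and 1.68% lower in this comparison. In GMP, 2 of the 8 members other than B4galt6 were higher (Ugcg and B4galt5) and 1 was lower (B4galt4), beside 1.19% and 1.40% of all genes. The median difference over the 9 members was -0.32 in ST-HSC on the log2 scale. Without B4galt6 it was -0.22 in ST-HSC and -0.11 in GMP, and over all genes it was -0.02 and -0.03. Levels below are log2 RMA values of single arrays in the order of replicates 1, 2 and 3, which have no rank. Array medians lay between 5.0 and 5.1 for ST-HSC and between 4.7 and 4.79 for GMP, so log2 levels were compared only within a population. Across populations, levels are described only by the percentile within an array, without a test.

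**Figure D1:**
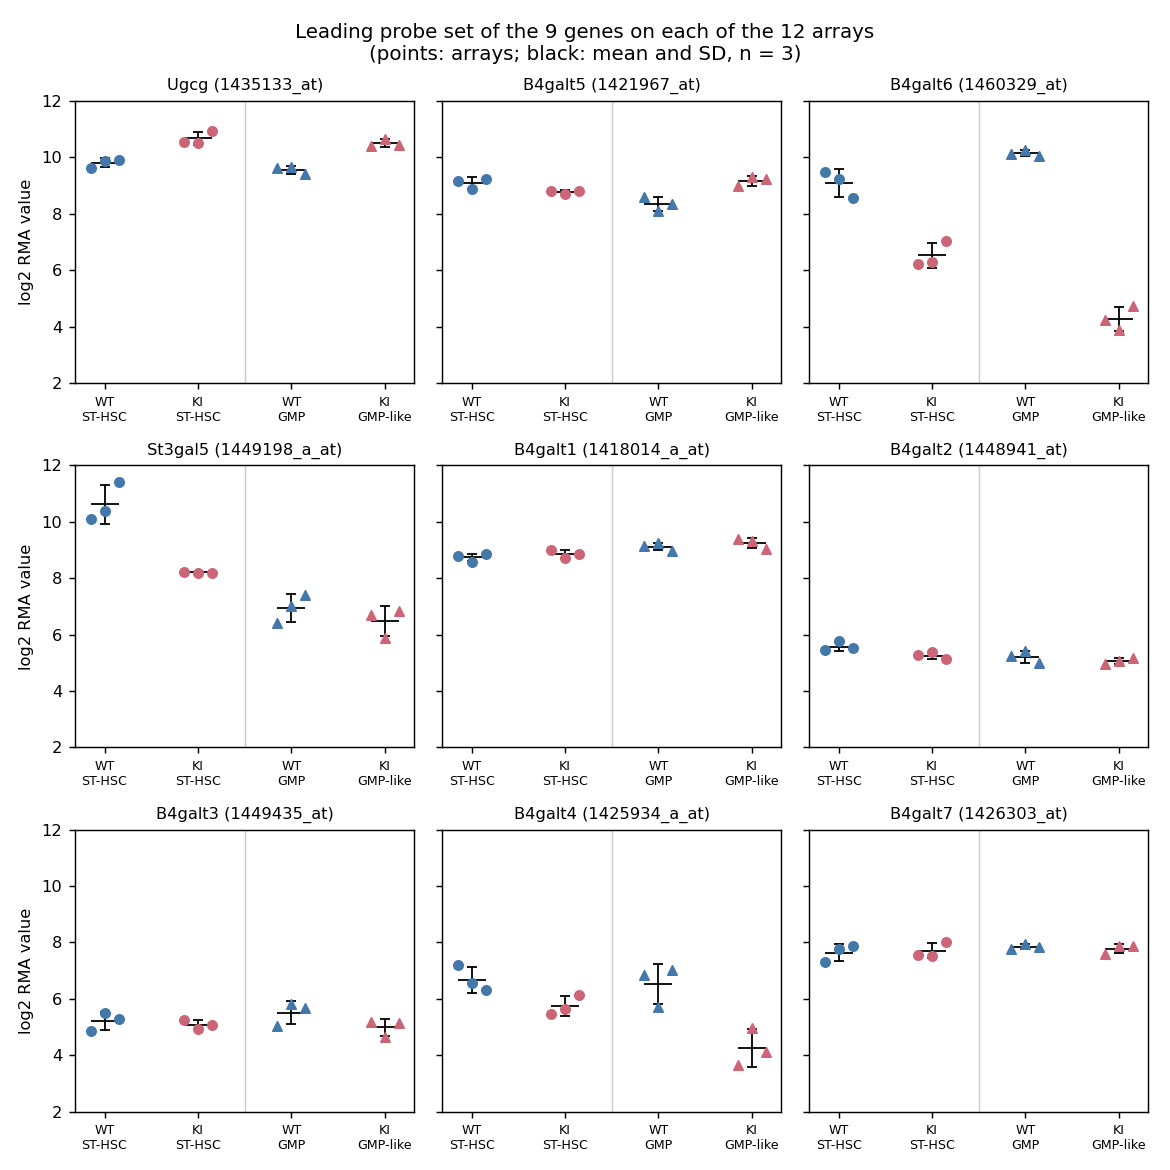
Leading probe set of each of the 9 genes; the vertical axis gives the log2 RMA value, points are single arrays (circles ST-HSC, triangles GMP; blue WT, red KI), and black marks are the mean and SD of 3 arrays. KI and WT points are separated in both populations for Ugcg, B4galt6, B4galt4 and B4galt5. For St3gal5 and B4galt2 they are separated in ST-HSC only, and they overlap in both for B4galt1, B4galt3 and B4galt7. B4galt5 in KI lies below WT by 0.05 in ST-HSC and above WT in GMP, and B4galt2 lies below WT by 0.05 in ST-HSC. The share of all genes separated this way was not counted.

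Ugcg, the entry step of the pathway, was higher in KI than in WT in both populations. Its leading probe set read 10.56, 10.52 and 10.95 in KI ST-HSC and 9.63, 9.88 and 9.92 in WT ST-HSC. In KI GMP-like cells it read 10.42, 10.67 and 10.43, and in WT GMP 9.62, 9.66 and 9.40. Every KI array lay above every WT array of its population. The difference was 0.87 (SE 0.157, 1.82-fold, adjusted p = 0.0167) in ST-HSC and 0.94 (SE 0.157, 1.92-fold, adjusted p = 0.0137) in GMP by limma, and these differed from each other by 0.08 (95% confidence interval -0.42 to 0.57). All 3 other Ugcg probe sets were also higher in KI, by 1.07 to 1.61 in ST-HSC and by 0.93 to 1.38 in GMP, again without overlap of the arrays. Of these 3, 1421268_at (adjusted p = 0.0342) and 1421269_at (adjusted p = 0.00784) passed the limma test in ST-HSC, and 1421269_at (adjusted p = 0.0203) passed in GMP. The calls of the leading probe set were close to the threshold: without KI ST-HSC replicate 3 the difference was 0.73 (limma adjusted p = 0.0682), without WT ST-HSC replicate 1 it was 0.78 (0.0531), and without WT GMP replicate 3 it was 0.86 (0.0514). Without the high-Xist WT arrays, which leaves 1 WT array per population that is assumed to vary like the others, the differences were 0.80 and 0.84 (adjusted p = 0.161 and 0.198).

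B4galt6, a lactosylceramide synthase of narrower expression than B4galt5, was lower in KI cells on all 4 of its probe sets. The leading one read 6.24, 6.30 and 7.04 in KI ST-HSC and 9.50, 9.22 and 8.55 in WT ST-HSC. In KI GMP-like cells it read 4.24, 3.89 and 4.73, and in WT GMP 10.12, 10.26 and 10.06. KI and WT arrays did not overlap in either population, with a gap of 1.51 in ST-HSC and 5.33 in GMP. In ST-HSC the gene fell by 2.56 on the log2 scale (SE 0.298, 5.91-fold lower, limma adjusted p = 0.00142), and it stayed called without any 1 array and without the high-Xist arrays, where the difference was -2.69 (adjusted p = 0.0263). The difference in GMP, which chose the gene, was -5.86, or 58.0-fold lower, and ranked 3 from the lowest of 18193 genes. In WT cells the level of this probe set lay at a mean percentile of 88.0 within the ST-HSC arrays and 94.2 within the GMP arrays, and in KI cells at 66.7 and 42.6. B4galt6 thus had its highest percentile in WT GMP and its lowest in KI GMP-like cells. Both ends of this order are GMP values, which chose the gene, so the order is given without a test.

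The check probe sets of B4galt6 gave the same direction from lower and higher signals. In ST-HSC, 1423228_at differed by -2.32 (limma adjusted p = 0.00301), 1435758_at by -2.22 (0.00589) and 1450913_at by -2.04 (0.0924). The last of these varied most, reading 4.92, 5.73 and 6.04 in KI and 7.19, 7.25 and 8.37 in WT ST-HSC, yet its arrays did not overlap. In GMP the 3 differences were -5.90, -4.44 and -5.01. On 1435758_at the KI GMP-like arrays read 3.40, 2.58 and 2.81, at a mean percentile of 14.6, so little signal was left there to measure.

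**Figure D2:**
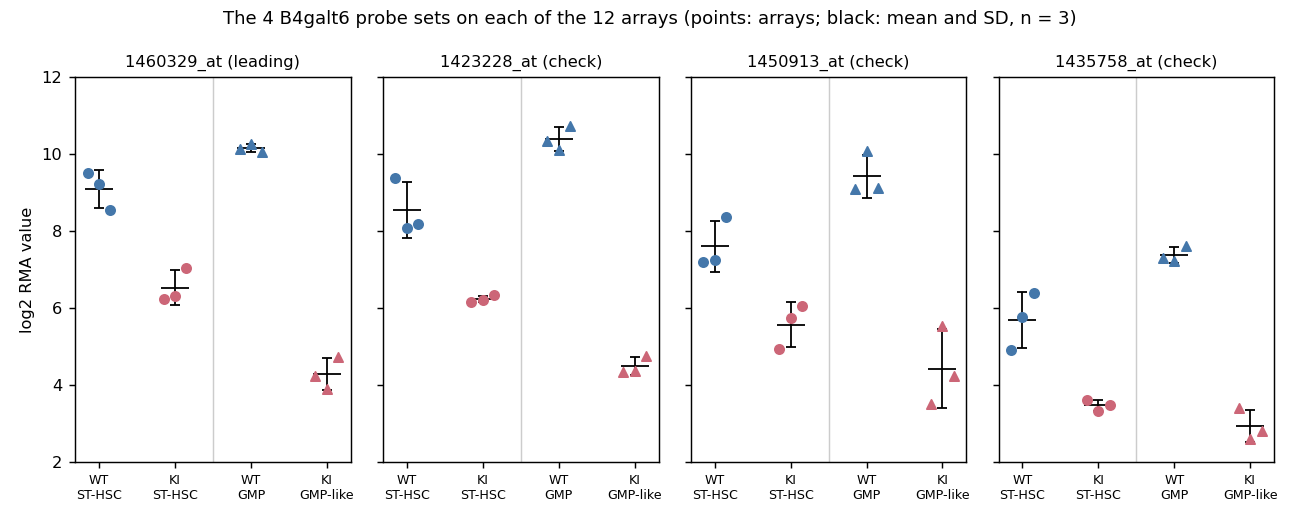
The 4 probe sets of B4galt6, 1 panel each, with the log2 RMA value on the vertical axis; points are arrays, and black marks are the mean and SD of 3 arrays. On each probe set all KI arrays lie below all WT arrays of the same population, and the means of the leading one are 9.09 and 6.53 in ST-HSC and 10.14 and 4.29 in GMP, WT first.

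B4galt5, the other lactosylceramide synthase, did not fall with B4galt6. Its leading probe set read 8.98, 9.30 and 9.23 in KI GMP-like cells and 8.60, 8.12 and 8.36 in WT GMP, a rise of 0.81 (SE 0.162, 1.75-fold, limma adjusted p = 0.0321) with no overlap. In ST-HSC it read 8.82, 8.70 and 8.81 in KI and 9.18, 8.87 and 9.25 in WT, a difference of -0.32 (95% confidence interval -0.68 to 0.03, adjusted p = 0.447), with the KI arrays just below the WT arrays. The difference between the populations was 1.13 (SE 0.229, limma adjusted p = 0.143). The other probe set, 1433617_s_at, differed by 0.09 in GMP and 0.03 in ST-HSC (adjusted p = 0.901 and 0.968) and its arrays overlapped, so the gene's probe sets disagree. An "_s_at" name marks a set that may also detect related transcripts. The GMP call was lost without KI GMP-like replicate 2 (0.74, adjusted p = 0.0807) or 3 (0.78, 0.0994), without WT GMP replicate 2 (0.69, 0.0849) or 3 (0.81, 0.087), without the high-Xist arrays (1.05, 0.0805), with the replicate number as a block (0.81, 0.0523), and for the mean of both probe sets (0.45, 0.144).

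St3gal5, the GM3 synthase, was lower in KI ST-HSC but not detectably in GMP. The leading probe set read 8.22, 8.19 and 8.20 in KI ST-HSC and 10.08, 10.37 and 11.40 in WT ST-HSC. All KI arrays were below all WT arrays, and the KI arrays were much more alike (SD 0.0157) than the WT arrays (SD 0.697). The gene fell by 2.41 (SE 0.372, 5.33-fold lower, limma adjusted p = 0.00692), and it stayed called without any 1 array. In GMP the arrays read 6.71, 5.88 and 6.85 in KI and 6.40, 7.01 and 7.40 in WT and overlapped, with a difference of -0.45 (95% confidence interval -1.28 to 0.37, adjusted p = 0.677). The check probe set, 1460241_a_at, differed by -1.48 in the same direction in ST-HSC (limma adjusted p = 0.00337) and by 0.05 in GMP (0.958). The difference between the populations, 1.96 for the leading probe set and 1.53 for the check, did not pass the limma test (adjusted p = 0.29 and 0.112), so a fall limited to ST-HSC is not shown. In WT cells the leading probe set was at a mean percentile of 95.2 within the ST-HSC arrays and 73.0 within the GMP arrays.

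Among the glycoprotein enzymes, B4galt4 alone was called. It read 3.64, 4.97 and 4.12 in KI GMP-like cells and 6.85, 5.70 and 7.03 in WT GMP, a fall of 2.29 (SE 0.418, 4.88-fold lower, limma adjusted p = 0.0218) with no overlap. In ST-HSC it read 5.47, 5.63 and 6.13 in KI and 7.19, 6.55 and 6.30 in WT, and the difference of -0.94 did not pass (95% confidence interval -1.86 to -0.01, adjusted p = 0.376). The gene has 1 probe set and wide replicates, and 4 arrays decided the GMP call: the difference was -1.98 without KI GMP-like replicate 1 (adjusted p = 0.0594), -2.23 without KI GMP-like replicate 3 (0.0737), -2.12 without WT GMP replicate 1 (0.0761) and -2.04 without WT GMP replicate 3 (0.0743). Without the high-Xist arrays it was -1.46 (adjusted p = 0.291).

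B4galt1, B4galt2, B4galt3 and the proteoglycan linker enzyme B4galt7 were not called in either population. B4galt1, the most broadly used of the family, had group means of 8.74 to 9.25 and differed by 0.12 (95% confidence interval -0.19 to 0.44) in ST-HSC and 0.13 (-0.19 to 0.45) in GMP. B4galt7 differed by 0.07 (-0.34 to 0.49) and -0.07 (-0.49 to 0.34). B4galt2 differed by -0.32 (-0.64 to 0.01) in ST-HSC, with KI arrays just below WT arrays, and by -0.15 (-0.48 to 0.18) in GMP. B4galt3 differed by -0.13 (-0.67 to 0.41) and -0.52 (-1.06 to 0.01). The second probe sets of B4galt2, B4galt3 and B4galt7 were not called either, although on 1426304_x_at of B4galt7 the KI ST-HSC arrays lay above the WT arrays (0.56, limma adjusted p = 0.309).

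**Figure D3:**
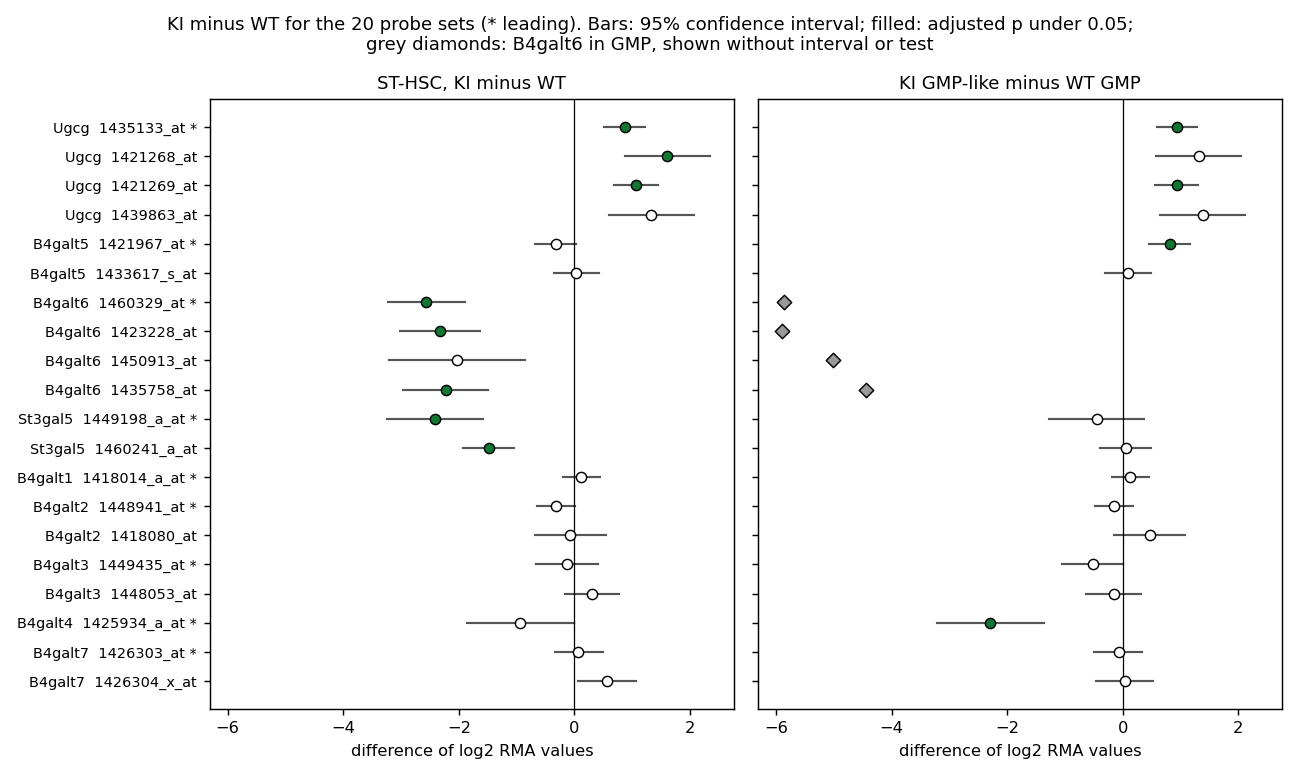
KI minus WT for all 20 probe sets, leading ones starred, in ST-HSC (left) and GMP (right); the horizontal axis is the difference of log2 RMA values, bars are unadjusted 95% confidence intervals, and filled circles passed the adjusted limma test. Ugcg lies right of 0 on every probe set and B4galt6 left of 0 on every one; B4galt6 in GMP is drawn as grey diamonds without an interval because these values chose the gene.

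Whether KI minus WT differed between the populations was tested for the 8 members other than B4galt6, and 0 passed the adjusted limma test, beside 0.0495% of all genes. At an unadjusted p under 0.05, 3 of the 8 did (B4galt4, B4galt5 and St3gal5), beside 8.45% of all genes. For B4galt6 the difference of the differences was -3.29 (description).

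The genes whose leading probe sets were most like that of B4galt6 were found by the root mean square distance over 12 arrays, after each probe set was centred within each population. The nearest were Ldhb, a lactate dehydrogenase subunit, at 0.59, the transcription factor gene Tfec at 0.69, the inhibitory receptor gene Cd300a at 0.72, the creatine synthesis gene Gatm at 0.77 and the immunoglobulin superfamily gene Igsf6 at 0.80, while the median over genes was 2.28. All 5 were lower in KI without overlap, with differences of -2.66 to -4.05 in ST-HSC and of -4.63 to -5.01 in GMP. The fall in GMP was larger than that in ST-HSC for B4galt6 and for each of the 5. They were picked for this likeness, so it is a description.

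Around these enzymes, 82 of 91 genes in 7 pathway lists had a probe set with 1 symbol. In KI ST-HSC 3 of the 82 were called higher and 5 lower, beside 1.33% and 1.68% of all genes. In KI GMP-like cells 1 was higher and 4 were lower, beside 1.19% and 1.40%. Their median differences were 0.07 and 0.00. Ceramide synthesis contributed Kdsr, an early reductase of the route, higher by 0.98 in ST-HSC and 0.99 in GMP (limma adjusted p = 0.0342 and 0.0355), and the other 13 measured genes were not called. Kdsr read 9.71 to 9.79 in KI ST-HSC and 8.36 to 9.02 in WT, but its other 2 probe sets were not called, and the call was lost without any KI array or WT replicate 2 or 3 of the population (adjusted p 0.063 to 0.127 in ST-HSC and 0.063 to 0.106 in GMP) and for the mean of its probe sets (adjusted p = 0.0785 and 0.36). Without the high-Xist arrays Kdsr differed by 1.01 in GMP (limma adjusted p = 0.0709). No gene of the other fates of ceramide passed. The closest were the sphingomyelin synthase Sgms2 in ST-HSC (1.44, adjusted p = 0.0546) and Plekha8, a glucosylceramide transfer protein, in GMP (1.23, adjusted p = 0.456).

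Of 14 genes that extend lactosylceramide to gangliosides and related series, 0 were called in ST-HSC and 4 had an unadjusted limma p under 0.05, beside 14.3% of all genes, with the lacto-series enzyme B3gnt5 closest (-1.71, adjusted p = 0.129). In GMP the sialyltransferase St6galnac3 differed by -1.21 on its leading probe set (adjusted p = 0.00921), at 7.96 to 8.38 in KI and 9.20 to 9.54 in WT. The other 2 probe sets of St6galnac3 were not called, and its call was lost without the high-Xist arrays (-1.31, adjusted p = 0.0979) and for the mean of its probe sets (-0.33, 0.38).

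Breakdown was the list with most calls in ST-HSC, 3 of 12 genes, all lower, beside 1.68% of all genes. There 7 of the 12 had an unadjusted limma p under 0.05, beside 14.3% of all genes, and these 7 were not all lower. The differences of the list in ST-HSC ran from -2.52 to 1.64. Psap, the precursor of the saposins that present glycolipids to their hydrolases, fell by 2.52 (SE 0.306, 5.75-fold lower, limma adjusted p = 0.00174). It read 9.61, 9.17 and 9.36 in KI and 11.49, 11.52 and 12.70 in WT ST-HSC, without overlap, whereas in GMP both group means were 10.23. The difference between the populations, 2.52, did not pass the limma test (adjusted p = 0.0966), so a Psap fall limited to ST-HSC is not shown. Both Psap probe sets were called in ST-HSC, and the call held without any 1 array. Hexa, a β-hexosaminidase subunit that acts on GM2, differed by -1.25 in ST-HSC (adjusted p = 0.0271) and -1.45 in GMP (0.0156), and Asah1, the acid ceramidase, by -1.43 in ST-HSC (0.0386). Each of the 6 ST-HSC arrays was needed for the Hexa call there (adjusted p 0.0518 to 0.121 without 1 of them), and the Asah1 call was lost without KI ST-HSC replicate 2 or 3 or WT ST-HSC replicate 1 or 3 (0.105 to 0.149). Without the high-Xist arrays Asah1 differed by -0.76 (limma adjusted p = 0.407), and Hexa by -1.16 in ST-HSC and -1.73 in GMP (0.198 and 0.11). The median of the list was positive in both populations, 0.18 and 0.15.

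In the N-glycan list, which holds the enzymes that branch the chains and cap galactose, 2 of 15 genes were lower in each population. St6gal1, which puts α-2,6-sialic acid on galactose, fell by 3.25 in ST-HSC (SE 0.492, 9.54-fold lower, limma adjusted p = 0.00634), reading 4.06, 4.21 and 4.83 in KI and 7.58, 7.10 and 8.17 in WT. Its other probe set was not called. In GMP St6gal1 differed by -0.99 (limma adjusted p = 0.407), and the difference between the populations, 2.26, did not pass (0.387). The fucosyltransferase Fut4 differed by -1.53 in ST-HSC and -1.64 in GMP (adjusted p = 0.0267 and 0.0234), and the branching enzyme Mgat5 by -1.21 in GMP (adjusted p = 0.0119). The Fut4 call in ST-HSC was lost without any 1 array (adjusted p 0.0612 to 0.111) and in GMP without KI GMP-like replicate 2 or 3 or WT GMP replicate 1 or 2 (0.062 to 0.0832). Without the high-Xist arrays Fut4 differed by -1.47 in ST-HSC (adjusted p = 0.0562) and Mgat5 by -0.91 in GMP (0.251). In GMP the second probe set of Fut4 and the other 2 of Mgat5 were not called.

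Csgalnact1 and Csgalnact2, which start chondroitin sulfate chains on the linker that B4galt7 helps to build, were the 2 of 10 proteoglycan genes called, both higher in KI ST-HSC. Csgalnact1 differed by 2.18 (SE 0.461, 4.54-fold, limma adjusted p = 0.0366), a call lost without any 1 KI ST-HSC array (adjusted p 0.0892 to 0.14), and Csgalnact2 by 1.15 (SE 0.163, 2.23-fold, adjusted p = 0.00426), a call that held without any 1 array. In GMP none of the 10 passed, 4 having an unadjusted p under 0.05 beside 15.9% of all genes, with the chondroitin synthase Chsy1 closest (-0.57, adjusted p = 0.105). No gene of nucleotide sugar supply was called. The closest in ST-HSC was the CMP-sialic acid transporter Slc35a1 (0.51, limma adjusted p = 0.261). There 2 of 9 genes had an unadjusted p under 0.05, beside 14.3% of all genes. In GMP the closest was Ugdh (0.24, limma adjusted p = 0.591), and 0 of 9 had an unadjusted p under 0.05, beside 15.9%.

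**Figure D4:**
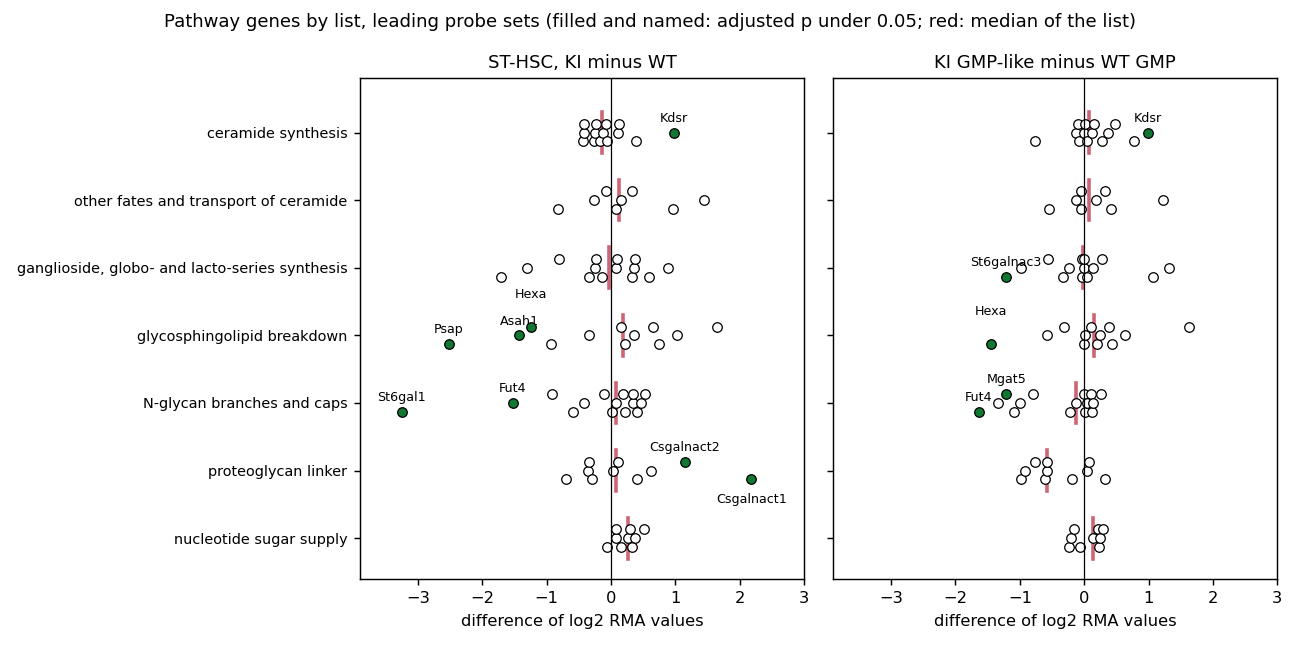
KI minus WT of the 82 measured pathway genes by list, leading probe sets, in ST-HSC (left) and GMP (right); the horizontal axis is the difference of log2 RMA values, circles are genes, filled and named where the adjusted limma test was passed, and red bars are list medians. Called genes are few, and the list medians lie between -0.57 and 0.27.

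Markers of other cells moved between the same groups, and their part in the results above was not tested. The counts of calls below stand beside 1.33% of all genes called higher and 1.68% lower in ST-HSC, and 1.19% and 1.40% in GMP. Counts at an unadjusted limma p under 0.05 stand beside 14.3% of all genes in ST-HSC and 15.9% in GMP. For each list the linear values were summed per array and are given as log2; RMA values have no true 0, so no marker could be called absent. The sum of 5 B lymphoid genes was 6.81 to 7.05 in KI and 8.53 to 10.94 in WT ST-HSC, the direction of St3gal5, St6gal1 and Psap, with 1 of the 5 called (Vpreb1, -4.21, limma adjusted p = 0.0421), and in GMP it was 6.94 to 8.37 and 6.90 to 9.15. Erythroid genes summed to 9.83 to 10.56 in KI and 8.37 to 8.79 in WT ST-HSC, with 3 of 6 called higher, and to 8.99 to 9.69 and 7.09 to 7.96 in GMP, with 0 called (2 at an unadjusted p under 0.05), which is the direction of Ugcg. Mast cell and basophil genes summed to 11.89 to 12.15 and 9.13 to 10.70 in ST-HSC, with 3 of 5 called higher. In ST-HSC Ms4a2 of this list went the other way, by -2.51 without passing (limma adjusted p = 0.196). In GMP the list summed to 12.85 to 13.16 and 11.94 to 12.88, with 1 higher (Cpa3) and 1 lower (Ms4a2). Endothelial genes summed to 9.60 to 10.39 in KI and 8.21 to 8.67 in WT GMP, with 1 of 5 called higher (Pecam1). In ST-HSC they summed to 9.10 to 9.46 in KI and 8.11 to 8.83 in WT, with 0 called. There 2 had an unadjusted limma p under 0.05, in opposite directions: Pecam1 was higher in KI and Tek was lower. Pecam1 read highest of the 5 on every array, so it weighed most in each endothelial sum. Megakaryocyte genes summed to 9.92 to 10.46 and 8.29 to 9.01 in ST-HSC, with 2 of 5 called higher, and to 8.82 to 9.59 and 8.16 to 8.62 in GMP, with 1 called higher (Gp1bb). Like the erythroid sum, the megakaryocyte and endothelial sums had the direction of Ugcg in both populations, and so did the mast cell sum in ST-HSC. Mature macrophage genes summed to 7.93 to 8.14 in KI and 8.10 to 8.97 in WT ST-HSC, with 1 of 8 called (Cd163, higher), and to 7.78 to 8.15 and 8.02 to 8.47 in GMP. Hepatocyte genes summed to 7.85 to 7.89 and 8.67 to 9.78 in ST-HSC and to 6.83 to 7.93 and 7.67 to 9.09 in GMP, with 1 of 4 (Afp) called lower in each. In ST-HSC the hepatocyte sum, like the B lymphoid sum, had the direction of St3gal5, St6gal1 and Psap. Csf1r, the macrophage colony-stimulating factor receptor, was lower in KI, with differences of -7.10 in ST-HSC and -3.92 in GMP (limma adjusted p = 0.00149 and 0.0409), beside B4galt6.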

How the data were processed

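RNA of sorted cells was amplified linearly by the authors and each sample was hybridized to 1 Affymetrix MG430 v2 array, 12 in all. Normalization by the authors used RMA under R-Bioconductor, whose version is not given in the sources here, and left the deposited values on a log2 scale. RMA aligns the arrays by quantiles, so shifts common to all genes are removed and differences at low signal are compressed. Arrays carry no read depth, and their number limits the precision.

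From 45101 probe sets, 64 controls were removed and the remaining 45037 all entered the tests, dim ones included. The annotation gave 34945 of them 1 symbol, 932 several and 9160 none. Groups were taken from the genotype and title of each sample. A limma model (version 3.58.1, R 4.3.3, default eBayes) with 4 group means was fitted to all 12 arrays, leaving 8 residual degrees of freedom plus 2.52 from the prior, after being tested on simulated data. P-values were adjusted by Benjamini-Hochberg over all 45037 probe sets per comparison, and confidence intervals (95%) were not adjusted. Percentages of all genes use 1 leading probe set per gene. Within a population, the deviations of same-numbered KI and WT arrays correlated between -0.0381 and 0.0742, so the KI and WT arrays were not treated as pairs. Numbers across the populations were not checked beyond Xist, which was high on WT replicates 1 and 3 of both. The main model treated all 12 arrays as independent, so a link between same-numbered arrays of the 2 populations was not modelled there. Motifs were counted with Python 3.11.15.

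Named were all members, up to 4 called genes per pathway list and population or else the one with the smallest p, the 5 genes nearest to B4galt6, Spi1, Jun, and marker genes where a result touches them. Jun differed by -0.95 in ST-HSC and 0.77 in GMP (adjusted p = 0.606 and 0.671). The members and lists were chosen with earlier results of these data known.

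The alternatives were another set of arrays, normalization, filter, variance model or test, and the replicate number as a block. Others were Xist as a covariate, the high-Xist WT arrays left out, the mean of a gene's probe sets, and each array left out in turn. The other tests were Student's t-test, with and without adjustment, and SAM. The authors used SAM for the arrays, and their methods name Student's t-test for the experiments in general. SAM was written anew after their description, with some settings that it does not give.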

Additional observations from a re-analysis of the deposited data

Results flagged for a closer look

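The B4galt5 arrays lay on opposite sides in the 2 populations: its KI arrays were below the WT arrays in ST-HSC and above them in GMP, and the difference of the 2 differences was 1.13 on the log2 scale for the leading probe set. By limma this did not pass (adjusted p = 0.143), nor did the ST-HSC difference of -0.32 (adjusted p = 0.447), and for the second probe set it was 0.06.

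B4galt6 fell further in GMP than in ST-HSC, with a difference of the differences of -3.29. Since its GMP values chose the gene, no test is given. On the check probe sets it was -3.58, -2.97 and -2.21.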

How the results depend on the processing

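No called difference of a member or pathway gene changed sign under any alternative. In ST-HSC, B4galt6 and St3gal5 kept their calls under all 16 limma alternatives. Both lost them by the rewritten SAM and by Student's t-test after adjustment. Ugcg lost its call under 7 of 19 alternatives in ST-HSC and 6 of 19 in GMP, B4galt4 under 9 of 19 and B4galt5 under 10 of 19 in GMP. Over all 45037 probe sets, the main model called 458 higher and 538 lower in ST-HSC, and 475 and 484 in GMP. SAM called 41 and 120 in ST-HSC, and 12 and 31 in GMP. The adjusted t-test called 1 and 6 in ST-HSC, and 0 and 2 in GMP. The 6 arrays of the population alone called 360 and 436 in ST-HSC, and 122 and 124 in GMP. The cause of the members' losses was not tested.

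Members higher in ST-HSC numbered 1, and 0 with the 6 arrays of the population alone, by SAM, by the adjusted t-test, with Xist as a covariate and without the high-Xist arrays. Members lower numbered 2, and 0 by SAM and the adjusted t-test. In GMP without B4galt6, 2 higher became 0 with 6 arrays, SAM, the adjusted t-test or no high-Xist arrays, and 1 with the replicate block (B4galt5 lost), Xist as a covariate or the mean of probe sets. The 1 lower became 0 with 6 arrays, SAM, the adjusted t-test, the Xist covariate or no high-Xist arrays. The replicate block changed no other member's call; it left 2 pathway genes higher and 4 lower in ST-HSC, Csgalnact1 and Hexa losing their calls.

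Pathway genes higher in ST-HSC (3) became 0 by SAM and the adjusted t-test and 9 by the unadjusted t-test. The 5 lower became 1, 0 and 10 by these tests and 3 with the Xist covariate. Over all 45037 probe sets, the unadjusted t-test passed 2699 higher and 2654 lower in ST-HSC, and 2056 and 2460 in GMP. With the Xist covariate 422 and 432 were called in ST-HSC, and 307 and 300 in GMP. In GMP the 1 higher became 0 with 6 arrays, SAM, the adjusted t-test or no high-Xist arrays, 3 by the unadjusted t-test or the mean of probe sets, and 2 with quantile normalization within a population or either filter on low values. The 4 lower became 0 with 6 arrays, SAM or the adjusted t-test, 9 by the unadjusted t-test, and 1 with the Xist covariate or no high-Xist arrays.

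Leaving out 1 array at a time gave 0 to 1 members higher and 2 lower in ST-HSC, 0 to 2 higher and 0 to 1 lower in GMP without B4galt6, 1 to 3 pathway genes higher and 2 to 4 lower in ST-HSC, and 0 to 2 higher and 3 to 5 lower in GMP.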
